A study of Arabidopsis thaliana with 13 samples.

Results

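The step described here is the 4 h between hour 2 and hour 6 of the 24 h cycle in Arabidopsis thaliana seedlings. Its arrays were chosen from the hours in the sample titles: hours 26, 50 and 74 of the course equal hour 2 modulo 24, and hours 30 and 54 equal hour 6. That gave 3 arrays of hour 2 and 2 arrays of hour 6, which are 5 of the 13 arrays of the series. Successive arrays bracketed the step in the earlier cycle (hours 26 to 30) and again in the later one (hours 50 to 54).

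All groups were unmutated whole seedlings of the accession Col-0, raised in a growth room at 22 C under a 12 h photoperiod on MS agar plates with 3% sucrose. Total RNA was read on Affymetrix ATH1 arrays, which measure a transcript with a set of short probes, at 4 h intervals between hours 26 and 74, with a single array at each. By its title, the series served to model the circadian clock. What hour 0 was, whether lights kept cycling during sampling, and how many seedlings made up a sample are not in the labels. Arrays of the same hour of the cycle were 24 h or 48 h apart in 1 course, and the labels do not say whether they came from separate cultures, so p-values measure the spread between such arrays. In whole seedlings, fewer cells of a type and less RNA per cell cannot be told apart.

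The plant clock is a network of transcription factors that repress and activate each other in turn, so that groups of transcripts peak at different hours. GI (GIGANTEA) is one of its later-phased components and links it to the timing of flowering. Among known clock outputs are photosynthesis, starch use, cold tolerance genes, growth and the flavonoid pathway, in which DFR leads to the anthocyanin pigments and glycosyl and acyl transferases add sugar and acyl groups to them.

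Signals are on the authors' linear scale, on which the trimmed mean of every array was 100.01. Over the 22746 probe sets other than controls, the median signal was 46.8 to 47.2 on the hour 2 arrays, 48.4 and 50.9 on the hour 6 arrays and 47.2 to 49.2 on the other 8. The part of that difference in the results was not tested, but quantile normalization, which gives every array the same distribution, is among the alternatives. Markers of shoot and root were looked up, which is not a test of the labelled tissue. All 4 shoot markers with a named probe set, among them RCA and LHCB4.1, were bright enough to test. So were all 5 such root markers, among them PYK10, and 0 of the 9 were called changed. Some planned markers had no named probe set. The summed shoot signal was 7208 to 10856 at hour 2 and 9547 to 10240 at hour 6, and the summed root signal 2935 to 3691 and 3071 to 3569.

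Between hour 2 and hour 6, transcripts of anthocyanin and flavonol modification fell together, while GI, the clock regulator TIC, the chlorophyll synthesis gene PORB and the cold-regulated gene COR15B rose. In the chlorophyll synthesis list and the cold and dehydration list, 3 of 4 and 6 of 8 tested members were not called. In limma's fit, which compared the 2 arrays of hour 6 with the 3 of hour 2 and took its spread from all 13 arrays, 468 of the 13647 probe sets bright enough to test changed at a Benjamini-Hochberg adjusted p under 0.05 (3.43%). Of these, 246 were higher at hour 6 (1.8%) and 222 lower (1.63%). At an unadjusted p under 0.05 there were 2717. The typical change was below 2-fold. The called rises had a median of 1.74-fold (quartiles 1.56 and 2.01) and the called falls one of 1.69-fold (1.5 and 1.99), and 116 of the 468 reached 2-fold. The median change over all tested probe sets was 0.03 on the log2 scale.

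In all 468 called probe sets the hour 6 arrays lay entirely outside the range of the hour 2 arrays. Such a lack of overlap was itself common, with 2857 probe sets higher (20.9%) and 2054 lower (15.1%). The count of calls depended most on hour 54. It was 35 without that array, of which 32 were among the 468. Leaving out another array gave 212 (hour 30), 256 (hour 26), 519 (hour 50) or 435 (hour 74). Each of the 468 kept its sign in all 5 of these fits.

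A transcript was described as switched in both cycles where it moved at least 2-fold in the same direction from hour 26 to 30 and from hour 50 to 54. There were 62 such probe sets up (0.454% of those tested) and 41 down (0.3%), 103 in all (0.755%). The reverse pattern, at least 2-fold one way in one cycle and the other way in the other, was found in 7 probe sets, 6 of them down and then up. Of the 103 switched probe sets, 78 were also called by the fit (45 up, 33 down), a count that uses the same arrays and so adds no separate evidence. The switched rises were 38% of the 163 rises of at least 2-fold in the earlier step and 39.2% of the 158 in the later one. The switched falls were 15.8% of the 259 earlier falls and 37.3% of the 110 later ones, so the earlier step held more falls that were not repeated. Over all 13647 probe sets the changes in the 2 steps, which share no array, correlated at 0.46, with an SD of 0.43 in the earlier and 0.39 in the later step (log2). Probe sets are not independent replicates.

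**Figure D1:**
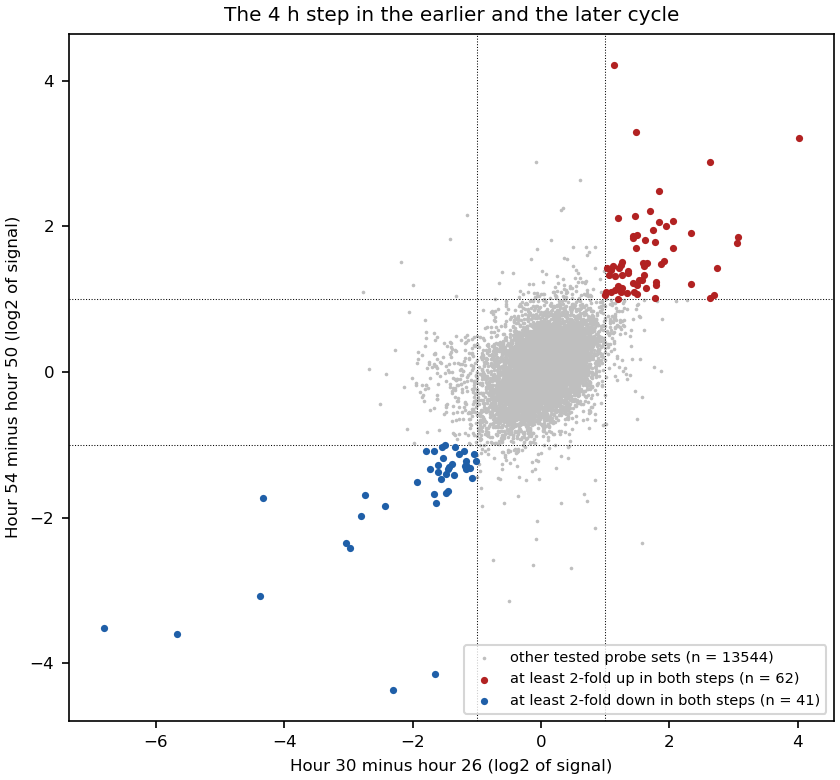
Change of each tested probe set from hour 26 to 30 (x axis, log2 of signal) against its change from hour 50 to 54 (y axis, log2 of signal); dotted lines mark 2-fold. The 62 probe sets at least 2-fold up in both steps lie at the upper right in red and the 41 at least 2-fold down at the lower left in blue, with the other tested probe sets in grey.

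Nearest to the 2-fold limit, AT4G30660 lay just inside on the rising side (2.00-fold and 2.09-fold in the earlier and later step) and AT3G19850 just outside (2.13-fold and 1.99-fold). On the falling side, AT5G42760 lay just inside (2.54-fold and 2.03-fold) and AT1G78020 just outside (2.15-fold and 1.99-fold). These were picked for their closeness to the limit after their values were seen.

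Hour 74 was the one hour 2 array that the 2-fold rule did not use. It lay below both hour 6 arrays in 54 of the 62 switched rises (43.4% of all tested probe sets did). It lay above both in all 41 switched falls (33.8% of all tested did). Those hour 6 arrays also chose the probe sets, so nothing is read from these counts. The exceptions among the rises included COR15A, whose signal was 92.2 at hour 26 and 132 at hour 50 but 477 at hour 74, against 215 and 356 at hours 30 and 54. The hour 2 and hour 6 arrays of COR15A thus overlapped and it was not called (0.62 ± 0.52 SE, log2, adjusted p = 0.54). CCL, listed as CCR-like, measured 200, 624 and 1049 at hours 26, 50 and 74 and 1675 and 2132 at hour 6. It had no overlap, but the hour 2 arrays were far apart, and it too was not called (1.90 ± 0.51, adjusted p = 0.061). CCL was picked after its values were seen.

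The largest switched rises were ranked with an offset of 32 added to each signal, which keeps dim values from leading. Only probe sets with a single gene were ranked, here and for the falls. They were 20 of the 45 called switched rises and 20 of the 33 called switched falls. AT4G32340, for which the gene table used here gives no other name, had signals of 58.3, 96.1 and 85.6 at hours 26, 50 and 74, and of 294 and 362 at hours 30 and 54. Both hour 6 arrays were thus at least 3 times the highest hour 2 array. It rose 4.17-fold (2.06 ± 0.19 SE, log2, adjusted p = 0.0011).

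Among rises with an annotated role, AT5G61590 is DEWAX, a transcription factor of the AP2/ERF family that represses wax synthesis genes. It measured 107, 147 and 168 at hours 26, 50 and 74, and 392 and 410 at hours 30 and 54. The hour 6 arrays were alike and well above the spread at hour 2, and DEWAX rose 2.91-fold (1.54 ± 0.17, adjusted p = 0.0017). Fes1B, of a family of Hsp70 cofactors, measured 58.7, 77.5 and 77.1 against 176 and 219, without overlap, and rose 2.78-fold (1.48 ± 0.17, adjusted p = 0.0017). AT3G15450 measured 137, 204 and 162 against 372 and 743. Its hour 6 arrays stood well apart from each other, yet both were above all hour 2 arrays (3.18-fold, 1.67 ± 0.24, adjusted p = 0.0043). The calls of AT4G32340, DEWAX, Fes1B and AT3G15450 held with any of the 5 arrays left out.

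AT1G70820 measured 33.3 at hour 26, but 116 and 102 at hours 50 and 74, against 223 and 312 at hour 6. Its earlier step was therefore the larger, at 6.70-fold against 2.70-fold (1.85 ± 0.40, adjusted p = 0.029). AT2G30600 was read by more than 1 probe set. The one that met the both-cycle rule measured 22.9, 32.6 and 23.2 against 88.1 and 131 (2.05 ± 0.29, adjusted p = 0.0043), and a brighter one 52.8, 68.0 and 53.4 against 105 and 178 (1.24 ± 0.20, adjusted p = 0.0088). Both rose without overlap, by 4.15-fold and 2.36-fold.

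The other members of the 12 largest rises were AT1G56300, COR15B, AT4G34950, AT3G47160, GI and AT3G15630, with changes of 2.44-fold (AT3G15630) to 3.07-fold (AT1G56300). None of the 12 had hour 2 and hour 6 arrays that overlapped. Without hour 54, the calls of 8 of the 12 were lost: AT1G70820, AT2G30600, AT1G56300, COR15B, AT4G34950, AT3G47160, GI and AT3G15630, with adjusted p of 0.079 to 0.40. AT1G70820 and AT4G34950 were also lost without hour 30 (adjusted p of 0.073 and 0.072), and COR15B without hour 26 (0.082) or 50 (0.067).

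**Figure D2:**
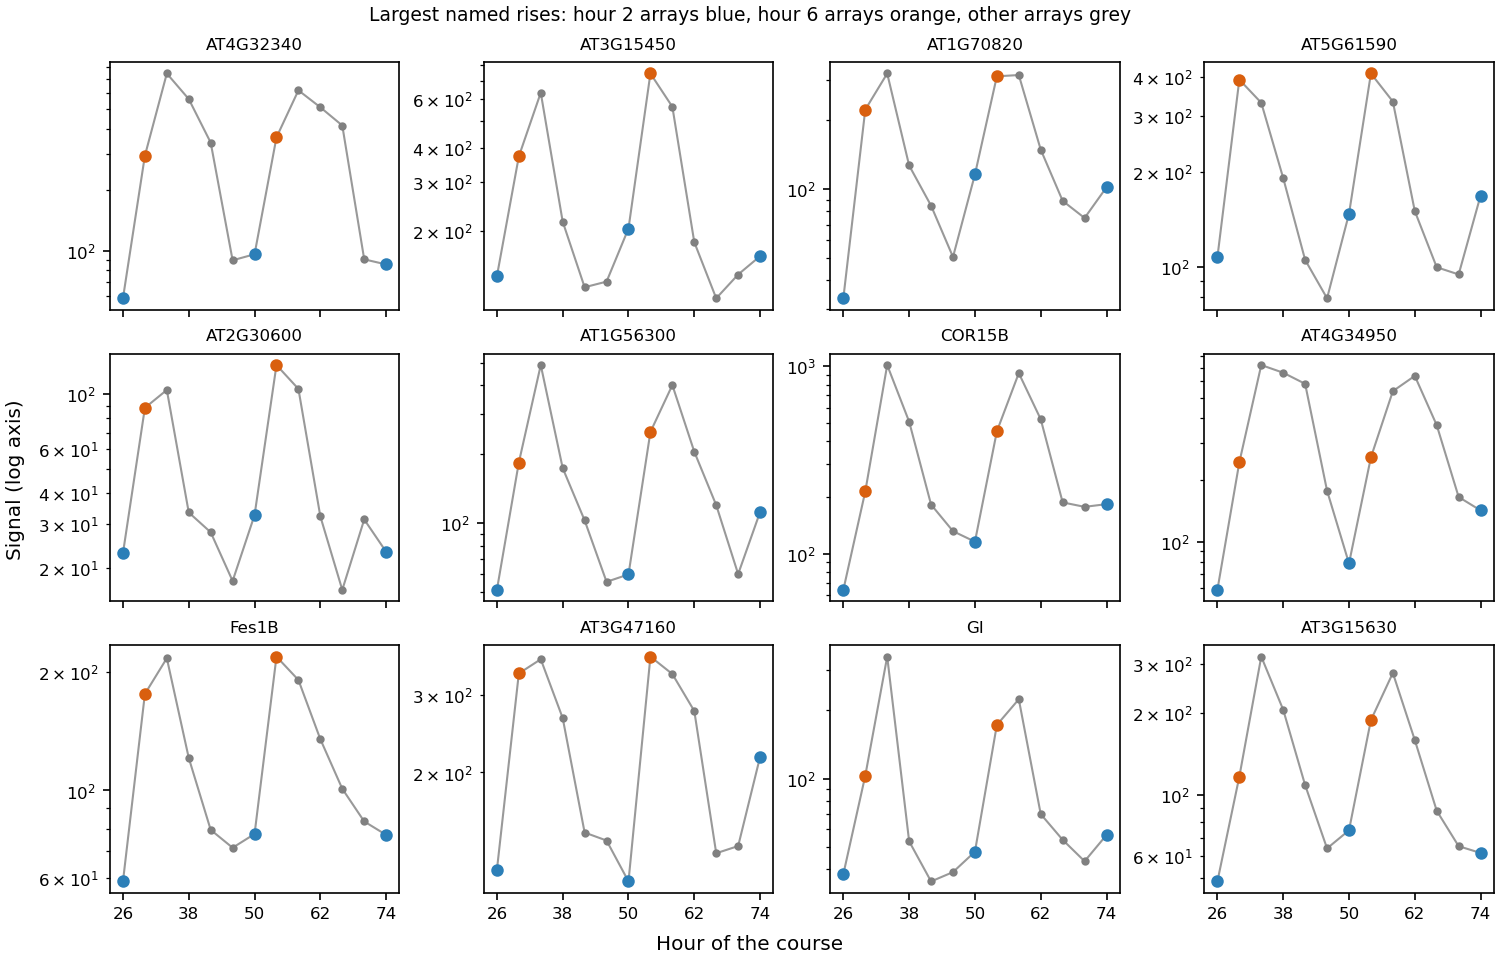
Signal (log axis) against hour of the course for the 12 largest named rises, with hour 2 arrays in blue, hour 6 arrays in orange and other arrays in grey. In each panel both orange points lie above all 3 blue points, and several transcripts, such as COR15B and GI, are higher still at hours 34 and 58.

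Among named probe sets, the largest falls were led by genes of anthocyanin and flavonol modification. AT4G14090, placed in the flavonoid list by its locus as an anthocyanin glucosyltransferase, measured 242, 137 and 433 at hours 26, 50 and 74, and 2.15 and 11.9 at hours 30 and 54. It fell by 5.59 ± 0.68 (SE, log2, adjusted p = 0.0026), without overlap. The hour 6 signals are far below the mean of 31.8 that a probe set needed to be tested, so the size of the fall rests on dim values. It was 48.0-fold as measured, 20.4-fold without hour 30, 113-fold without hour 54 and 7.19-fold with the offset of 32.

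DFR, the dihydroflavonol reductase of anthocyanin synthesis, measured 465, 329 and 834 at hour 2 and 58.9 and 61.5 at hour 6. The hour 6 arrays were nearly equal while the hour 2 arrays spread over more than 2-fold, and DFR fell 8.36-fold (-3.06 ± 0.35, adjusted p = 0.0017). UF3GT (UGT79B1), which adds a further sugar to anthocyanins, measured 321, 193 and 533 against 47.8 and 60, without overlap (-2.58 ± 0.42, adjusted p = 0.0085). AT5MAT, an acyltransferase of anthocyanins, measured 77.3, 68.0 and 135 against 3.85 and 20.4. Its fall was 10.1-fold as measured (adjusted p = 0.0069), 4.37-fold without hour 30, 23.2-fold without hour 54 and 2.82-fold with the offset.

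UGT78D1 and UGT78D2, which attach rhamnose and glucose to flavonoids, moved less. UGT78D1 measured 156, 133 and 190 at hour 2 and 55.6 and 50.2 at hour 6, without overlap (-1.58 ± 0.22, adjusted p = 0.0042). UGT78D2 measured 312, 247 and 354 against 122 and 137, a fall of 2.32-fold (-1.22 ± 0.14, adjusted p = 0.0019), and missed the both-cycle rule with 2.55-fold and 1.80-fold. All 6 tested members of the flavonoid list therefore fell (1.63% of all tested probe sets did), with a median of -2.82 (log2) against 0.03 for all tested probe sets, and a further locus of the list was too dim to test. The list was chosen with earlier results of these data known, so the count describes its members and is no separate evidence. The list's call for UF3GT was lost without hour 30 (adjusted p = 0.053) or hour 54 (0.079) and that for UGT78D1 without hour 54 (0.073). AT4G14090, DFR, AT5MAT and UGT78D2 were called with any of the 5 arrays left out.

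Among falls outside the flavonoid list, APL3 encodes a large subunit of ADP-glucose pyrophosphorylase, the enzyme that feeds starch synthesis. It measured 131, 101 and 260 at hours 26, 50 and 74 and 45.7 and 44.4 at hour 6. The hour 6 arrays were alike and below all of hour 2, a fall of 3.35-fold (-1.74 ± 0.30, adjusted p = 0.012). SAG29, the sugar transporter SWEET15, measured 367, 179 and 274 against 116 and 84.6, without overlap (-1.41 ± 0.25, adjusted p = 0.013).

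The remaining 5 of the 12 largest falls have only a locus as symbol. They are not in the flavonoid list, but whether any of them acts in flavonoid modification was not assessed. AT3G28270 measured 395, 317 and 369 against 73.7 and 88.4, tight within each hour and 4.45-fold apart (-2.15 ± 0.40, adjusted p = 0.015). AT1G65490 measured 200, 243 and 193 against 52.5 and 85.5 (3.15-fold, adjusted p = 0.0050). AT2G46735 measured 71.4, 80.1 and 74 against 8.69 and 15.7, and its fall of 6.43-fold became 2.43-fold with the offset. AT1G06000 (2.57-fold) and AT5G12110 (2.36-fold) also fell without overlap. Without hour 54, 6 of the 12 calls were lost: UF3GT, AT3G28270, APL3, SAG29, UGT78D1 and AT5G12110, with adjusted p of 0.073 to 0.21. Of these, UF3GT, AT3G28270 and APL3 were lost without hour 30 as well (0.053 to 0.087).

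**Figure D3:**
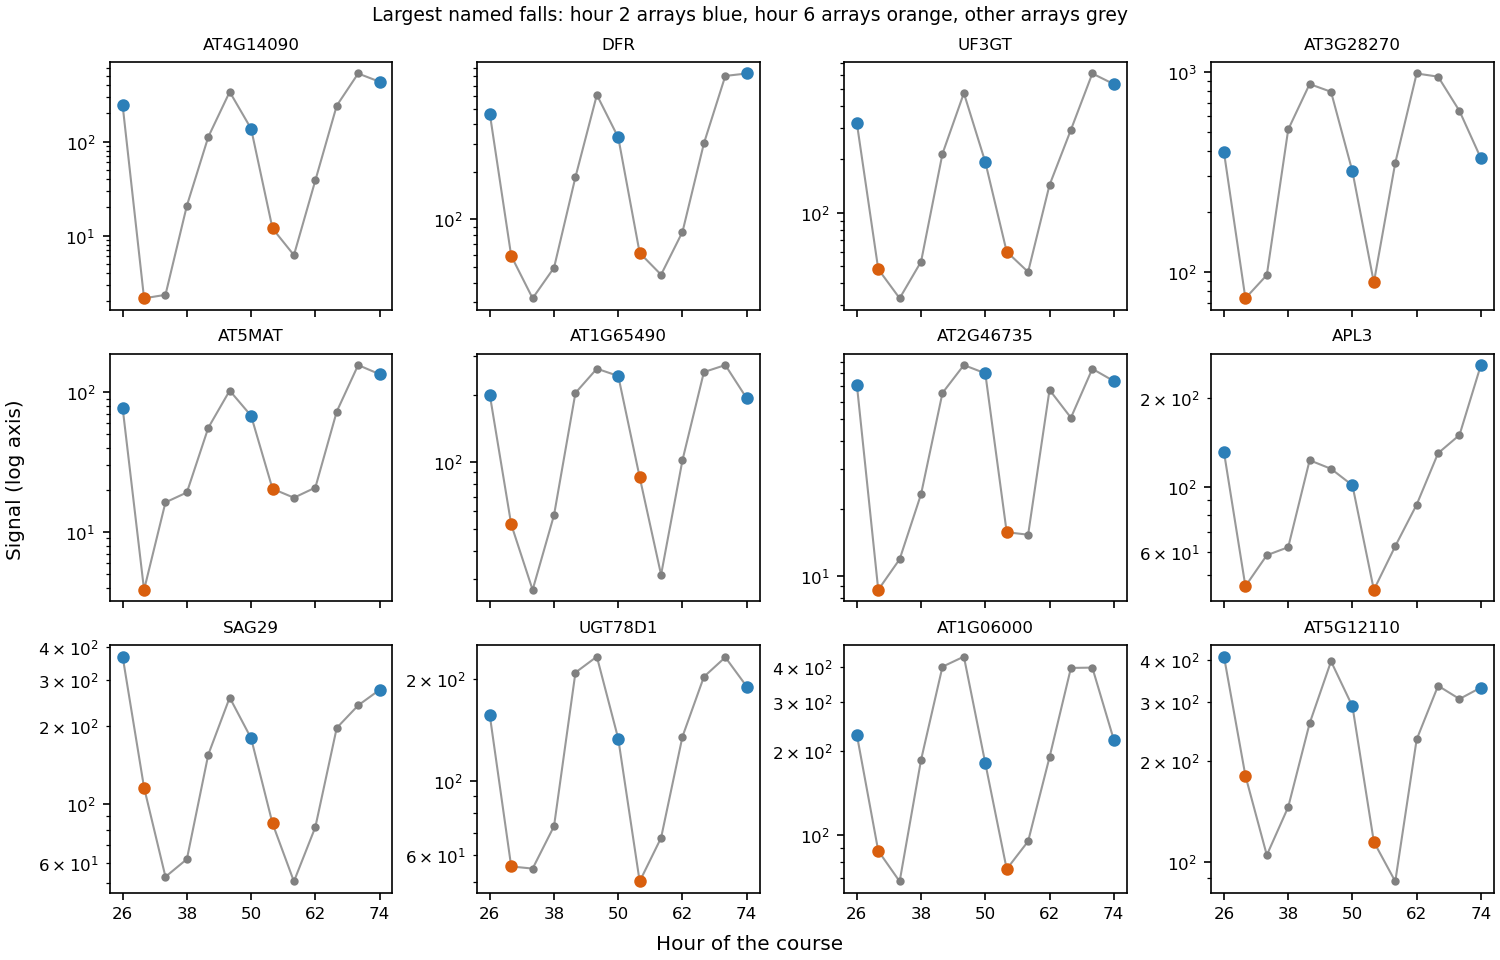
Signal (log axis) against hour of the course for the 12 largest named falls, with hour 2 arrays in blue, hour 6 arrays in orange and other arrays in grey. Both orange points lie below all 3 blue points in each panel, and the vertical range is widest for AT4G14090, whose hour 6 signals were 2.15 and 11.9.

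Beyond the 24, the both-cycle rule and the fit shared 8 more named rises and 8 more named falls, which are given here after their values were seen. The rises ran from AT4G30660 (1.83-fold) to AT1G78995 (3.21-fold, with a signal of 7.81 at hour 26) and included CHL, a chloroplast lipocalin, at 88.7, 103 and 145 against 181 and 276. The falls ran from AT3G56290 (2.02-fold) to AT1G64500 (2.77-fold). They included AFR, an F-box protein of far-red light signalling, which measured 325, 273 and 239 against 145 and 112. Both CHL and AFR were without overlap, and both calls were lost without hour 54 (adjusted p of 0.20 and 0.17).

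Of the clock list, 4 loci were bright enough to test and 3 were called, 2 higher and 1 lower, with a median of 0.51 (log2). That is too few to set against the 3.43% called over all tested probe sets. Most core clock genes had no named probe set, so these counts do not describe the clock as a whole. GI measured 38.1, 47.8 and 56.6 at hours 26, 50 and 74 and 103 and 172 at hours 30 and 54. All hour 2 arrays were low and neither hour 6 array overlapped them (2.84-fold, 1.5 ± 0.27, adjusted p = 0.014). TIC (TIME FOR COFFEE), a nuclear regulator of clock function, measured 310, 282 and 234 against 470 and 516, a smaller rise without overlap (1.80-fold, 0.85 ± 0.15, adjusted p = 0.014). XCT (XAP5 CIRCADIAN TIMEKEEPER), which affects period length, measured 67.9, 61.3 and 52.9 against 39.2 and 39.8.

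XCT fell 1.53-fold (-0.61 ± 0.14, adjusted p = 0.035), and the fourth member, AT5G52660, was not called (0.17 ± 0.15, adjusted p = 0.58). Without hour 54 no clock gene was called (adjusted p of 0.18 for GI, 0.17 for TIC and 0.20 for XCT). TIC also lost its call without hour 30 (0.050), and XCT without hour 26 (0.094), 30 (0.14) or 50 (0.059). HYH, a bZIP factor related to HY5 that acts in light responses, was the only tested member of the light signalling list. It measured 74.9, 56.4 and 37.8 against 25.5 and 20.4 and fell 2.38-fold (-1.25 ± 0.27, adjusted p = 0.029), or 1.59-fold with the offset. The call was lost without hour 26, 30, 50 or 54 (adjusted p of 0.055 to 0.25).

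The lists of chlorophyll synthesis and photosynthesis held 4 to 6 tested genes each. That is too few to set their calls against the 3.43% called over all tested probe sets. PORB, the protochlorophyllide oxidoreductase that carries out a light-dependent step of chlorophyll synthesis, measured 621, 1288 and 1371 at hour 2 and 2179 and 2526 at hour 6. It was lowest at hour 26, high on both hour 6 arrays and without overlap (2.28-fold, 1.19 ± 0.26, adjusted p = 0.029), and its call was lost without hour 30 (0.085) or hour 54 (0.23). The other 3 of the 4 tested genes of chlorophyll synthesis, HEMB1 (0.37 ± 0.11), CHLM (0.07 ± 0.13) and GSA1 (-0.10 ± 0.10), were not called. In limma's fit, 0 of 5 antenna proteins and their relatives, 0 of 6 photosystem and ATP synthase subunits and 0 of 4 Calvin cycle enzymes were called, with medians of -0.01, 0.14 and -0.06 (log2). The spread within hour 2 was wide for some of these. LHCB4.1 measured 2422, 3919 and 3279 at hour 2 and 3850 and 3826 at hour 6, so the groups overlapped (0.29 ± 0.17).

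Of 12 tested genes in the list of starch and sugar metabolism, 1 rose and 11 were not called (1.8% of all tested probe sets rose), with a median of -0.07. The list does not hold all such genes, as APL3 and SAG29, described above, fell and are not in it. DPE1, which processes the maltotriose left by starch breakdown, measured 56.3, 82.5 and 92.2 against 134 and 176, without overlap (2.04-fold, 1.03 ± 0.19, adjusted p = 0.014). The phosphoglucan water dikinase PWD (0.26 ± 0.17) and SWEET11 (-0.08 ± 0.17) were not called. The call for DPE1 was lost without hour 54 (0.18).

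Of 8 tested cold and dehydration genes, 2 rose and 6 were not called (1.8% of all tested rose), with a median of -0.10. COR15B, which encodes a protective protein of the chloroplast stroma, measured 64.2, 116 and 184 at hour 2 and 215 and 450 at hour 6. Both hour 6 arrays exceeded hour 2, although hour 74 came close to hour 30 (2.80-fold, 1.48 ± 0.36, adjusted p = 0.044). Signal of COR15B and its relative COR15A on each other's probe sets was not tested. AT4G30660 measured 260, 310 and 397 against 521 and 648, without overlap (1.83-fold, adjusted p = 0.018), and its call was lost without hour 54 (0.20). COR47, a dehydrin, had a change of -0.01 ± 0.19. LEA4-5, a late embryogenesis abundant protein, measured 314, 201 and 249 against 71.8 and 175, without overlap, and was not called (-1.16 ± 0.40, adjusted p = 0.13).

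Of 20 genes of cell wall loosening, 2 fell and 18 were not called (1.63% of all tested probe sets fell), with a median of -0.11. GH9B8, a glycosyl hydrolase of the family of cellulases, measured 237, 179 and 229 against 128 and 115 (1.76-fold, adjusted p = 0.015). XTH32, a xyloglucan endotransglucosylase, measured 517, 502 and 431 against 341 and 209 (1.81-fold, adjusted p = 0.018). In both, hour 6 lay below hour 2 without overlap. Both calls were lost without hour 54 (0.17 and 0.18), and that of XTH32 without hour 26 (0.050). The expansin EXPA8 was not called (0.63 ± 0.30, adjusted p = 0.26).

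Of 23 tested members of the list of UGT glycosyltransferases, an enzyme family that attaches sugars to small molecules, 4 fell (1.63% of all tested did). The other 19 were not called, and the median was -0.25. The list does not hold the whole family, as UF3GT (UGT79B1) and AT4G14090, described above, fell and are not among the 23. UGT78D1 and UGT78D2 are shared with the flavonoid list. UGT71B1 measured 80.1, 100 and 125 against 52.4 and 52.8 (1.91-fold, adjusted p = 0.015), and UGT74D1 measured 176, 200 and 246 against 129 and 118 (1.67-fold, adjusted p = 0.042). Neither overlapped. UGT71B1 lost its call without hour 30 (0.072) or 54 (0.14), and UGT74D1 without hour 30, 50, 54 or 74 (0.063 to 0.29) and with the cycle as a block (0.065).

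Of the 69 plastid-encoded transcripts, 2 fell and 67 were not called, a share near the 3.43% called over all tested probe sets, with a median of 0.01 (log2). The fall of ycf3, which acts in assembly of photosystem I, was from 203, 173 and 153 to 47.8 and 100 (2.52-fold, adjusted p = 0.029), and that of the ribosomal protein gene rps18 was from 387, 306 and 341 to 242 and 238 (1.43-fold, adjusted p = 0.042). Neither overlapped. The call of ycf3 was lost without hour 26 (0.073) or 30 (0.18). That of rps18 was lost without hour 26, 30, 54 or 74 (0.065 to 0.26), with the cycle as a block (0.060), with quantile normalization (0.053) and in the 5 arrays alone (0.16).

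Among 13 members of selected transcription factor families, 1 fell (1.63% of all tested did). This was AGL87, a MADS-box gene, which went from 57.2, 58.7 and 64.7 to 36.9 and 36.6 (1.64-fold, adjusted p = 0.025). Its call was lost without hour 30 (0.097), 54 (0.18) or 74 (0.053). In limma's fit, 0 of 13 stress and defence genes, 0 of 6 genes of auxin and growth, 0 of 4 genes of gibberellin, ethylene and brassinosteroid and 0 of 9 reference genes were called. The reference genes GAPC2 and TUB6 had changes of -0.01 ± 0.15 and 0.06 ± 0.11, and the median of the 9 was 0.06. No locus of the lists for phloem and guard cell markers and for cytosolic ribosomes was tested.

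**Figure D4:**
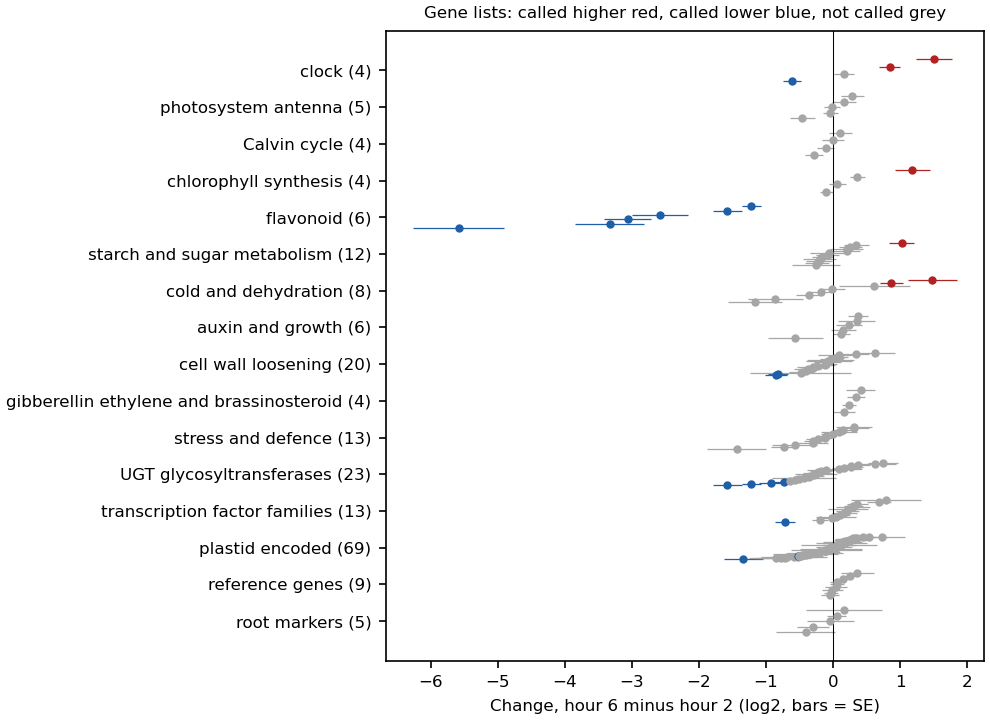
Change from hour 2 to hour 6 (x axis, log2, bars are SE) of each tested member of 16 gene lists, with the number tested in brackets; red members were called higher, blue lower and grey not called. All 6 flavonoid members are blue, between -5.59 and -1.22, while the antenna, Calvin cycle, reference and root marker members are grey.

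The switched transcripts did not, as a group, reach their extreme level at hour 6. Among the 62 rises, the mean was highest at hour 10 in 44, at hour 6 in 17 and at hour 14 in 1, and lowest at hour 22 in 28, hour 2 in 22, hour 18 in 10 and hour 14 in 2. Hour 10 was above hour 6 in 45 of the 62, with a median difference of 0.37 (log2). GI was 2.08-fold higher again at hour 10 than at hour 6 (343 and 223 at hours 34 and 58), COR15B 3.11-fold (1016 and 920) and AT4G32340 2.08-fold (747 and 617). DEWAX was lower at hour 10 (331 and 334) than at hour 6.

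Among the 41 falls, the mean was lowest at hour 10 in 27, at hour 6 in 11 and at hour 14 in 3, and highest at hour 22 in 25 and hour 2 in 10. The median difference from hour 6 to hour 10 was -0.46 (log2), with 29 lower and 12 higher. DFR was at 31.8 and 44.8 at hours 34 and 58, and AT1G65490 at 26.7 and 31.2. AT3G28270 was above its hour 6 signals at both hours, at 96.3 and 350. In the median course, the rises stood at -1.13, -0.57 and -0.33 (log2, relative to each probe set's own mean) at hours 26, 50 and 74. They stood at 0.50 and 0.90 at hours 30 and 54. The rule that chose these probe sets used hours 26 and 50 but not 74, so nothing is read from the order of the hour 2 arrays.

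**Figure D5:**
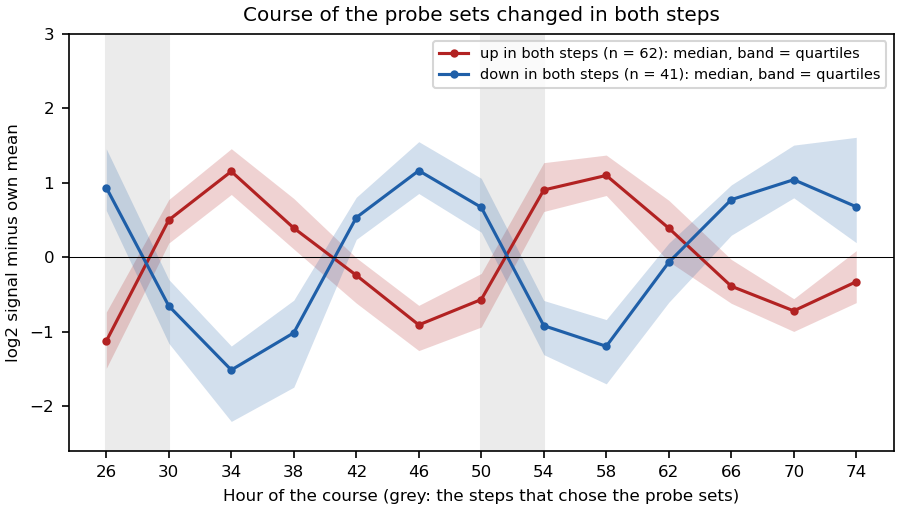
Median log2 signal, relative to each probe set's own mean, against hour of the course for the 62 probe sets up in both steps (red) and the 41 down (blue), with bands for the quartiles. Grey bars mark the steps that chose the probe sets; outside them the rises peak at hours 34 and 58 (1.15 and 1.10) and the falls are lowest at the same hours (-1.51 and -1.20).

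Some transcripts changed course at hour 6, by reversing or by levelling off, which the following test does not separate. A test added after the data were seen compared the change into hour 6 with the next change, from hour 6 to 10, and found 73 probe sets that differed (0.535%), 43 with a more negative and 30 with a more positive change into hour 6. Of them, 31 were also called lower and 20 called higher at hour 6. The examples that follow were chosen after their values were seen. AT1G78020 measured 264, 242 and 365 at hour 2, 123 and 121 at hour 6, and 227 and 269 at hour 10, so that both hour 6 arrays were below all others (difference of the changes -2.24 ± 0.28 SE, log2, adjusted p = 0.018). AT3G01350 measured 67.8, 59.0 and 61.5, then 119 and 105, then 50.4 and 54.3, so that both hour 6 arrays were above all others (1.94 ± 0.26, adjusted p = 0.018).

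UGT71B1 dipped at hour 6 in the same way (difference -1.99 ± 0.32, adjusted p = 0.033), as did AGL87 (-1.62 ± 0.27, adjusted p = 0.033) and ycf3 (-2.77 ± 0.54, adjusted p = 0.049). For DEWAX, among the largest rises, the 2 changes also differed (1.81 ± 0.32, adjusted p = 0.037). Its signals went only from 392 and 410 at hour 6 to 331 and 334 at hour 10. Leaving out an array moved the count of 73 to 3 (hour 54), 14 (hour 30), 39 (hour 26), 84 (hour 74) or 97 (hour 50).

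The same comparison with the previous change, from hour 22 to 2, gave 5 probe sets (0.0366%) in limma's fit, against 1930 at an unadjusted p under 0.05. The one named gene among them was AT4G32340, which measured 89.7 and 90.7 at hours 46 and 70, close to its hour 2 signals, and then rose (2.27 ± 0.32, adjusted p = 0.025). Leaving out an array moved the 5 to 27 (hour 30), 17 (hour 74), 14 (hour 50), 1 (hour 26) or 0 (hour 54).

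Hour 6 was also where many probe sets had their extreme arrays. Both hour 6 arrays were above all 11 others in 747 probe sets (5.47%) and below all others in 625 (4.58%). The same counts for the other times with 2 arrays were 572 and 518 at hour 10, 357 and 342 at hour 22, 191 and 182 at hour 18, and 184 and 204 at hour 14. Of the 246 called rises, 92 were above all others, and of the 222 called falls, 81 were below.

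The step from hour 2 to 6 had 468 calls, against 398 from hour 6 to 10, 69 from 10 to 14, 37 from 14 to 18, 10 from 18 to 22 and 71 from 22 to 2. Neighbouring steps share arrays, and hour 2 had 3 arrays against 2 at the other times. With 2 arrays in each group, the step from hour 2 to 6 had 256 calls when hour 26 was left out, 519 when hour 50 was, and 435 when hour 74 was, so its place before or after the step from hour 6 to 10 depended on the array.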

How the data were processed

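The authors deposited linear microarray intensities, a value for each probe set on each array. The submitters' processing notes list MAS5 without a version. Such scaling hides changes in total RNA, and dim values are noisy. Controls were removed, log2 was taken without offset, and 13647 probe sets with a mean above the 40th percentile (signal 31.8) were tested. A model with 6 time-of-day means for all 13 arrays (7 residual degrees of freedom) was fitted in R 4.3.3 by limma 3.58.1 (lmFit, eBayes with trend), with the contrast hour 6 minus hour 2 and Benjamini-Hochberg adjustment. The model was also run on simulated data with independent noise and changes placed at hour 6 only, without rhythms or differences between cycles. That run cannot show how far the calls depend on single arrays here. The platform annotation gave 1 gene to 13513 probe sets, several to 503 and none to 8730, and 13436 matched the TAIR10.1 gene table. Only single-gene probe sets are named, each locus in a list by its brightest.

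The rule named the 12 largest rises and falls among transcripts called and switched 2-fold in both cycles, and in each of 25 lists up to 4 called and 2 uncalled members; some are left out. Members, lists and tests were chosen with earlier results of these data known, and patterns for plastid and defensin loci were corrected after the annotation was read. Alternatives changed the offset, normalization, filter, variance model, covariates, fold limit and arrays. Sequences and coordinates were not used here. Figures were drawn with matplotlib 3.10.9.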

Additional observations from a re-analysis of the deposited data

Results flagged for a closer look

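The step of the later cycle was set against that of the earlier one in a fit with 3 residual degrees of freedom, chosen after the data were seen. In limma's fit, 2 of 13647 probe sets differed (0.0147%), and 950 did so at an unadjusted p under 0.05. The named one is AT4G14090, whose fall was 3.29 ± 0.40 (SE, log2, adjusted p = 0.0499) shallower in the later step. Its signal went from 242 to 2.15 in the earlier step and from 137 to 11.9 in the later one. With an offset of 32 the difference was 1.06 and was not called (adjusted p = 0.38).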

How the results depend on the processing

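The count of 468 calls for hour 6 against hour 2 ranged from 35 to 519 with a single array left out, and was 24 in a fit of the 5 arrays alone and 90 without moderation. The 5 arrays leave fewer degrees of freedom, and for the other changes of the count the cause was not tested. It was 483 with an offset, 508 with quantile normalization (47.4% of calls higher, against 52.6%), 315 without the filter, 484 with a filter at the 60th percentile, 642 with linear time and 390 without an intensity trend. With the cycle as a replicate block the count was 585. Of the named transcripts, UGT74D1 and rps18 lost their call under that block and GH9C2 gained one. Cycle differences at hours 2 and 6 correlated at 0.16 over probe sets, and only 2 pairs exist, so the block is an alternative only.

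The 103 probe sets switched in both cycles became 59 with an offset, 654 without the filter, 478 at a limit of 1.5-fold and 27 at 3-fold. The filter and the limits change which probe sets can count, and for the offset the cause was not tested. Of the 24 largest rises and falls, 10 were called without hour 54, 11 in the 5 arrays alone and 5 without moderation. No called and named change reversed sign under any alternative run. The test against the next step gave 165 calls with the block, 144 with linear time and 12 without the filter, against 73. The test against the previous step gave 34, 28 and 0, against 5. With 3 arrays against 2, the number of arrays limits the precision, and for dim transcripts signal over background does.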

Other observations

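The following transcripts are in no list described above, or were too dim for the main test, and were chosen after their values were seen. TUB5, a beta-tubulin, measured 270, 307 and 323 at hours 26, 50 and 74 and 665 and 605 at hours 30 and 54, a rise of 2.12-fold (1.08 ± 0.14 SE, log2, adjusted p = 0.0037) that was called with any of the 5 arrays left out. TUB6, of the same family, had a change of 0.06 ± 0.11, and the difference between them was not tested. PPDK, the pyruvate orthophosphate dikinase, measured 282, 257 and 305 against 135 and 144, a fall of 2.01-fold (adjusted p = 0.0091) that was not called without hour 30 or 54 (adjusted p of up to 0.084). Neither TUB5 nor PPDK overlapped between the hours.

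Without the filter, 27 of the 9099 dim probe sets were called, 7 higher and 20 lower at hour 6, and 19 had a single gene. IAA29, a repressor of auxin response, measured 34.9, 30.6 and 32.9 against 98.0 and 69.0, without overlap (1.33 on the log2 scale). AT5G62360 measured 4.12, 0.827 and 8.71 against 43.4 and 87.7, and went on to 114 and 125 at hour 10. AT1G23340 measured 22.3, 18.4 and 14 against 3.47 and 4.58, and the other 8 arrays lay between 13.0 and 24.1, so only hour 6 was low. Among dim probe sets, 367 were up and 184 down at least 2-fold in both steps, while 362 moved in opposite directions.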
